A study of Homo sapiens with 2 samples.

Results

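Interleukin-1 family ligands and receptors were examined in SAS cells, an established line of human tongue squamous carcinoma, with and without knockdown of KDM4C, a histone lysine demethylase. The 10 genes were IL1A, IL1B, IL1RN, IL18, IL33 and IL36G among the ligands and their antagonist, and IL1R1, IL1R2, IL1RAP and IL1RL1 among the receptors. They are 10 of the 58884 genes of the count table and were chosen with the counts of these same libraries in view, so their values are given as a description. The shKDM4C cells carried a lentiviral hairpin against KDM4C and the LKO cells the control pLKO.1 vector. The labels list LKO as WT and shKDM4C as KDM4C knockdown. Both were selected with puromycin, and RNA was taken after an overnight incubation. The sources used here do not name which KDM4C hairpin the sequenced cells carried, nor whether the selected cells were a pool or a clone. There was 1 library per condition, so no test between conditions was possible and no difference has a replicate check. The question put to these libraries was how KDM4C affects metastasis.

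Members of this cytokine family are released by damaged or activated cells and start inflammation. A ligand binds its own receptor chain, which recruits a second chain, most often IL1RAP, and the paired intracellular domains engage MyD88 and the IRAK kinases, which switch on NF-kB and MAP kinases. The pathway is held in check by a receptor antagonist, by decoy and soluble receptors and by binding proteins. Squamous epithelium stores several of these ligands, IL1A above all, and releases them on injury.

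The table held 50627096 counts for shKDM4C and 57626616 for LKO. After scaling by the trimmed mean of M-values (TMM), levels were given as CPM (counts scaled to a common library size), and differences as the log2 ratio of shKDM4C over LKO. Each ratio has a 95% exact interval that covers counting error only. A gene was called higher or lower when the ratio was at least 1.5-fold and the interval excluded no change. Summing both libraries, 18078 genes reached 20 counts and were compared, of which 2358 (13.0%) were called higher and 2840 (15.7%) lower. KDM4C, the targeted gene, had 242 counts in shKDM4C and 1047 in LKO, or 27.8% of the LKO level. Squamous markers were present in both libraries: the 10 genes of that list summed to 1186 CPM in shKDM4C and 1487 CPM in LKO. Within this list CDH1, TP63, PKP1 and DSG3 were called lower and KRT6A higher, with 5 genes neither. What this shift contributes to the family results was not tested.

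Of the 10 family members, 8 reached 20 counts. All 8 had a positive log2 ratio, 3 of them (IL1RL1, IL1R2 and IL1RN) were called higher, 0 were called lower and 5 were neither. Of all 18078 tested genes, 8920 had a positive log2 ratio, 13.0% were called higher and 15.7% lower. The median log2 ratio of the 8 members was 0.50, beside -0.0094 over all tested genes. IL36G and IL33 stayed under 20 counts and are described by their counts. Since the members were picked from this contrast, nothing is read from these shares. In bulk RNA, fewer cells of a type and less RNA per cell cannot be told apart.

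**Figure D1:**
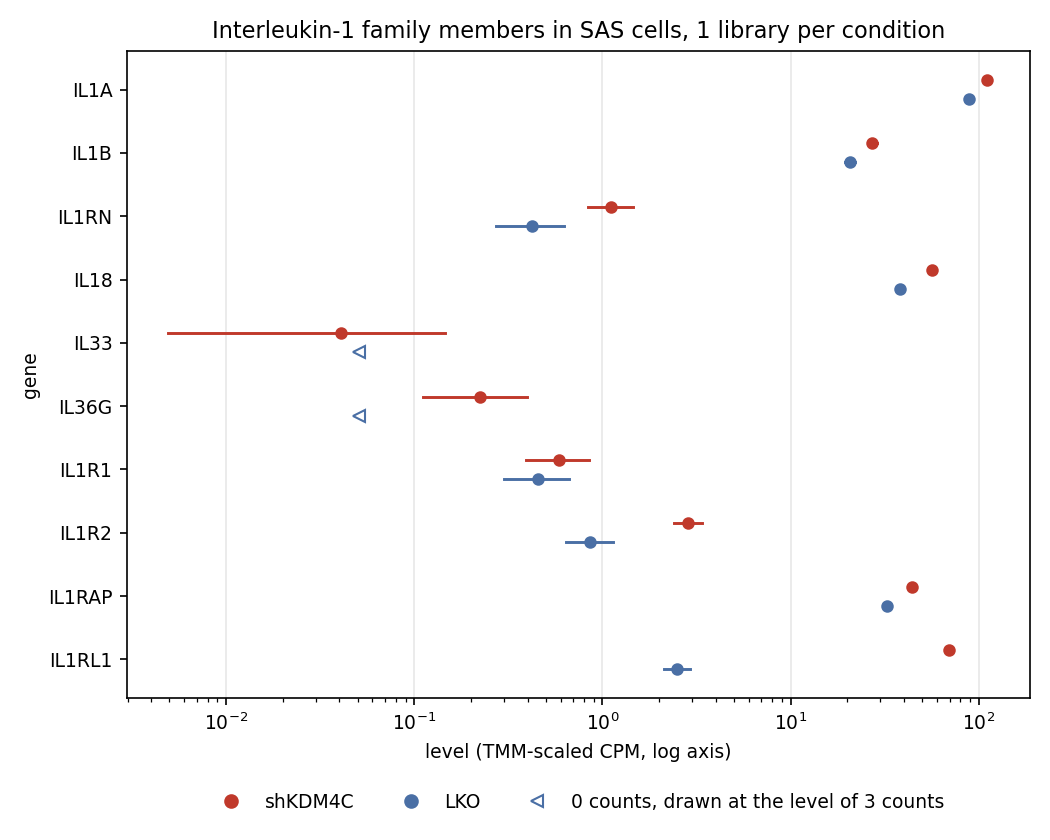
Level of each of the 10 genes in the shKDM4C library (red, upper point) and the LKO library (blue, lower point), in TMM-scaled CPM on a log axis, with bars for the 95% counting interval of 1 library. IL1RL1 shows the widest gap, 69.2 CPM in shKDM4C and 2.50 CPM in LKO, and open triangles mark 0 counts, drawn at the level of 3 counts.

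The receptors held the largest difference. IL1RL1 encodes ST2, the receptor for interleukin-33, which is made as a membrane form and as a secreted form that captures the ligand. It had 3412 counts in shKDM4C and 148 in LKO, or 69.2 CPM in shKDM4C and 2.50 CPM in LKO. This is a log2 ratio of 4.79 (95% counting interval 4.55 to 5.04), 27.6-fold higher in shKDM4C. By log2 ratio IL1RL1 ranked 23 among the 18078 tested genes. By level, 82.1% of tested genes lay below it in shKDM4C and 38.4% in LKO. Counts per gene do not separate the membrane and secreted transcripts, and 1.65% of the exonic bases of IL1RL1 are shared with IL18R1 on the same strand.

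IL1R2 is a decoy receptor that binds interleukin-1 but lacks the signaling domain. It had 141 counts in shKDM4C and 51 in LKO, or 2.86 CPM in shKDM4C and 0.862 CPM in LKO, with a log2 ratio of 1.72 (interval 1.26 to 2.22). IL1R1, the signaling receptor for the same ligands, was nearly silent in both libraries. Its 29 counts in shKDM4C and 27 in LKO gave a log2 ratio of 0.37 with an interval from -0.44 to 1.18, so a difference was not detectable at this depth. IL1RAP, the accessory chain shared by several receptors of the family, had 2170 counts in shKDM4C and 1932 in LKO, or 44.0 CPM in shKDM4C and 32.6 CPM in LKO. Its log2 ratio of 0.43 (interval 0.34 to 0.52) lay under the 1.5-fold limit.

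Ratios of counts within a library do not depend on the scaling, and 5 were computed, each with an exact conditional 95% interval for counting error. The decoy IL1R2 had 4.86 counts for each count of IL1R1 in shKDM4C and 1.89 in LKO, a ratio 2.57-fold higher in shKDM4C (interval 1.32 to 4.97). IL1RL1 had 1.57 counts for each count of its partner IL1RAP in shKDM4C and 0.0766 in LKO, 20.5-fold higher (interval 17.2 to 24.6). The ratio of IL1R1 to IL1RAP was 0.0134 in shKDM4C and 0.0140 in LKO, a fold of 0.956 with an interval of 0.544 to 1.69. Since the members were chosen from these counts, the ratios describe the same differences in another form and add no evidence for them.

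Promoter sequences are printed for the members called higher and, as a member that was not called, for IL1A, since the letters before a start are what a reader would compare between them. They are the 250 bases before an annotated start, from RefSeq on GRCh38.p14, which lists starts for 9 of the 10 members. Capitals mark matches on either strand to TGANTCA (AP-1), to AGATAA or AGATAG or the same words with T in place of the first A (GATA), or to the NF-kB consensus. IL1RL1 has 2 listed starts on the plus strand. The stretch before the upstream start, chr2:102311313-102311562, holds 4 GATA matches. The stretch before the downstream start, chr2:102337007-102337256, holds 1 AP-1 match.
IL1RL1 upstream start: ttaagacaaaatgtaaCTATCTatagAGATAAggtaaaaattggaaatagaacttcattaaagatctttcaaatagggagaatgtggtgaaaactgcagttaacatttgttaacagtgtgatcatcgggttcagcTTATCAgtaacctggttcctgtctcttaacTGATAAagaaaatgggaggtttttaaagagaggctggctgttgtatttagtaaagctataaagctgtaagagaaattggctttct
IL1RL1 downstream start: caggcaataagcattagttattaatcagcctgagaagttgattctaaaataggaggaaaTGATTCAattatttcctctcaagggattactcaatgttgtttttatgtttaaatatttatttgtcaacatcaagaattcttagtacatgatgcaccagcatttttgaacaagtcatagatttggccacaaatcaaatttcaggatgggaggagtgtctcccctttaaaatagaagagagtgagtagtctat
IL1R2, plus strand, chr2:101991710-101991959: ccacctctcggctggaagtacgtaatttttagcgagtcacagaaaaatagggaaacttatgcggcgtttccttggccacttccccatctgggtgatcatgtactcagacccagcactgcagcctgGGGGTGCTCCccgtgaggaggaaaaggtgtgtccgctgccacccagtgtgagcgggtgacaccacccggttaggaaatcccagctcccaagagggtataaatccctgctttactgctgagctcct
The IL1R2 stretch holds 1 match to the NF-kB consensus, and the stretch before the other listed IL1R2 start holds 0 matches to any of these motifs. At least 1 GATA match was found in 22.3% of 35116 promoters of this length, an AP-1 match in 6.57% and an NF-kB match in 9.96%. At least 4 GATA matches were found in 0.174%, a comparison chosen after the IL1RL1 sequence was seen. A match is a run of letters, and neither binding nor the start in use was measured here.

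Among the ligands, IL1A was the most abundant member and differed little. It encodes interleukin-1 alpha, an alarmin that is active without cleavage. It had 5427 counts in shKDM4C and 5232 in LKO, or 110 CPM in shKDM4C and 88.4 CPM in LKO, with a log2 ratio of 0.32 (interval 0.26 to 0.37). IL1B, which encodes the secreted interleukin-1 beta and needs cleavage by caspase-1, had 1344 counts in shKDM4C and 1225 in LKO, or 27.3 CPM in shKDM4C and 20.7 CPM in LKO. Its log2 ratio was 0.40 (interval 0.28 to 0.51). Both intervals excluded no change, yet both ratios stayed under 1.5-fold. IL1B had 0.248 counts for each count of IL1A in shKDM4C and 0.234 in LKO, a fold of 1.06 with an interval of 0.969 to 1.15.

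IL18, another ligand cut by caspase-1 and an inducer of interferon gamma, lay at the edge of the call. It had 2797 counts in shKDM4C and 2250 in LKO, or 56.7 CPM in shKDM4C and 38.0 CPM in LKO. The ratio was 1.49-fold (log2 0.58, interval 0.50 to 0.66), and with DESeq2 size factors the log2 ratio of 0.59 passed the limit. IL1RN, the soluble antagonist that occupies IL1R1 without signaling, was called higher from few counts. It had 55 counts in shKDM4C and 25 in LKO, or 1.12 CPM in shKDM4C and 0.422 CPM in LKO, with a log2 ratio of 1.39 (interval 0.69 to 2.15). Each count of IL1A and IL1B together was matched by 0.00812 counts of IL1RN in shKDM4C and 0.00387 in LKO, 2.10-fold higher (interval 1.28 to 3.52).

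The IL1RN stretch printed is that of its most upstream RefSeq start in the table and holds 1 AP-1 match, as does the IL1A stretch, 12 bases before the start. The stretches before the other 2 listed IL1RN starts hold 0 matches to these motifs, and the stretch before the other listed IL1A start holds 2 AP-1 matches.
IL1RN, plus strand, chr2:113117721-113117970: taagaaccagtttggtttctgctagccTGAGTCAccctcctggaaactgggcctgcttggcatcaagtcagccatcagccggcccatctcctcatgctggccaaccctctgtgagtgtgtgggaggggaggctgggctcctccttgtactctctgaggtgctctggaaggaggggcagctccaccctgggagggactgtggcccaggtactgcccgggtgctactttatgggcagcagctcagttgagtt
IL1A, minus strand, chr2:112784494-112784743: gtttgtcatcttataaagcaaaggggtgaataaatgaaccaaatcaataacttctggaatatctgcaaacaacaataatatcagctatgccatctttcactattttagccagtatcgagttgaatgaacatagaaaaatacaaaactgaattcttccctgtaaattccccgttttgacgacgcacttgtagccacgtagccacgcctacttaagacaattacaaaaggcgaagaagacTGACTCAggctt
Of the stretches before the 18 listed starts of the 9 members, 4 held an AP-1 match, 6 a GATA match and 1 an NF-kB match, several of them belonging to the same gene and overlapping.

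IL36G and IL33 were close to absent. IL36G, an epithelial cytokine that signals through IL1RL2 and IL1RAP, had 11 counts in shKDM4C and 0 in LKO. Set against a floor of 3 counts in the LKO library, it was at least 4.40-fold higher in shKDM4C if the 11 counts are taken as exact. With the counting error of those counts included, the interval of its log2 ratio began at 1.59. IL33, a nuclear alarmin and the ligand of the IL1RL1 product, had 2 counts in shKDM4C and 0 in LKO, both under the floor, so no fold was computed. IL1RL1 and its known ligand were thus counted at very different levels in the shKDM4C library.

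Levels of different genes were compared per kilobase of the Ensembl canonical transcript. In shKDM4C the order was IL1A (54.6 CPM per kb), IL18 (50.9), IL1RL1 (34.7), IL1B (18.1), IL1RAP (9.28), IL1R2 (1.96), IL1RN (0.655), IL36G (0.184), IL1R1 (0.114) and IL33 (0.0151). In LKO it was IL1A (43.8 CPM per kb), IL18 (34.1), IL1B (13.7), IL1RAP (6.88), IL1RL1 (1.25), IL1R2 (0.589), IL1RN (0.248) and IL1R1 (0.0880), with IL36G and IL33 at 0 counts. IL1RL1 was the third member in shKDM4C and the fifth in LKO, and these places were the same when all exonic bases were used as the length. Among neighbors in these orders, the counting intervals overlapped only for IL36G and IL1R1 in shKDM4C and for the 2 genes at 0 in LKO. With all exonic bases, those of IL1RN and IL36G in shKDM4C and of IL1RL1 and IL1R2 and of IL1RN and IL1R1 in LKO overlapped too.

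**Figure D2:**
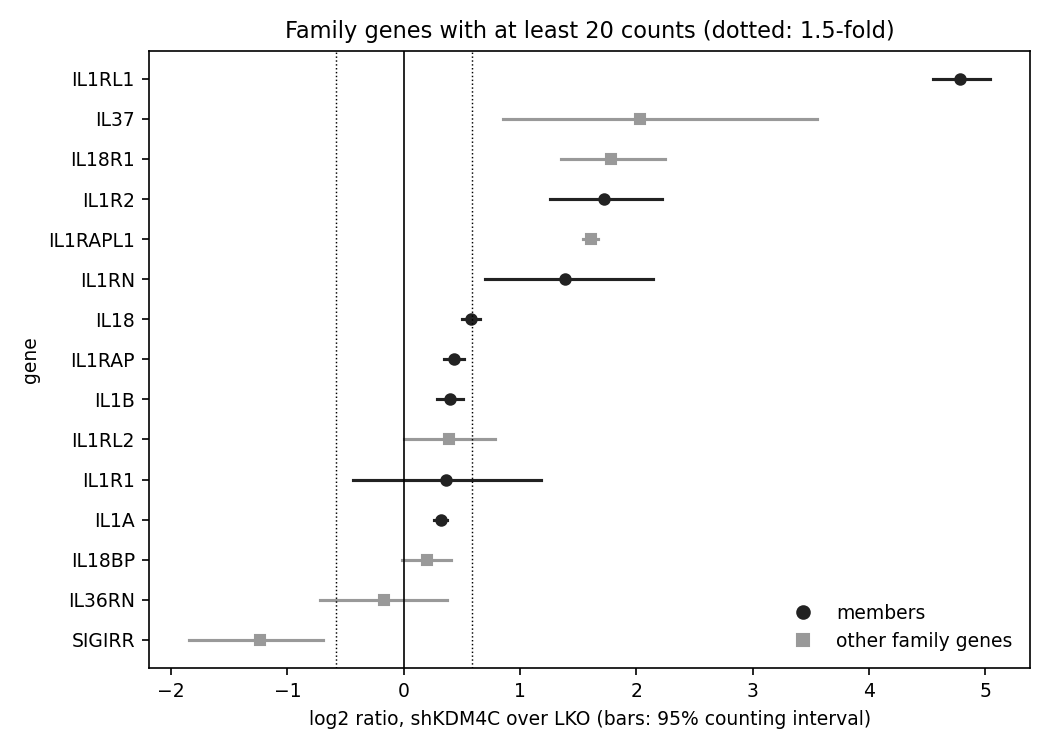
Log2 ratio of shKDM4C over LKO (points) with 95% counting intervals (bars) for the 15 family genes with at least 20 counts, members as black circles and the other genes as grey squares. IL1RL1 at 4.79 stands above the rest, and SIGIRR at -1.24 is the only one called lower.

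The other 12 genes of the family held calls in both directions. Of these, 7 were tested, 3 were called higher and 1 lower, beside 13.0% higher and 15.7% lower over all tested genes. IL18R1, the ligand-binding chain of the interleukin-18 receptor, had 167 counts in shKDM4C and 58 in LKO, with a log2 ratio of 1.78 (interval 1.35 to 2.25), while its partner IL18RAP had 1 count in shKDM4C and 0 in LKO. On the same strand, 2.11% of the exonic bases of IL18R1 are shared with IL1RL1, which had far more counts in shKDM4C. Whether reads of IL1RL1 add to the IL18R1 counts was not tested. IL1RAPL1, a receptor-like gene on the X chromosome best known from synapses, was well counted, with 6631 counts in shKDM4C and 2615 in LKO and a log2 ratio of 1.61 (interval 1.54 to 1.67). IL37, an anti-inflammatory member, had 25 counts in shKDM4C and 7 in LKO, with a log2 ratio of 2.03 (interval 0.85 to 3.55). SIGIRR, which restrains signaling by receptors of the family, had 36 counts in shKDM4C and 103 in LKO, with a log2 ratio of -1.24 (interval -1.84 to -0.69). Those not called were IL1RL2, the interleukin-36 receptor, at 0.39 (interval 0.0021 to 0.78), IL18BP, which captures interleukin-18, at 0.20 (interval -0.018 to 0.41), and the antagonist IL36RN at -0.17 (interval -0.72 to 0.37). Of the exonic bases of IL18BP, 17.6% overlap NUMA1 on the opposite strand, and the strand setting of the counting is not given. IL36A, IL36B, IL1F10 and IL1RAPL2 each had at most 5 counts in either library.

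Most of these genes lie in 2 clusters on chromosome 2 of GRCh38. The receptor cluster spans 461 kb (chr2:101991960-102452565, IL1R2 to IL18RAP), and 5 of its 12 counted genes were tested, all of them receptors of the family. Of these, IL1R2, IL1RL1 and IL18R1 were called higher, and IL1R1 and IL1RL2, which lie between IL1R2 and IL1RL1, were not. The intervals of IL1R1 (-0.44 to 1.18) and IL1RL2 (0.0021 to 0.78) both reached past the 1.5-fold limit. Whether the difference extends over the whole cluster was not tested. IL1RL1 (plus strand, chr2:102311502-102352037) and IL18R1 (plus strand, chr2:102311529-102398777) start 27 bases apart in the annotation. The ligand cluster spans 360 kb (chr2:112773925-113134016, IL1A to IL1RN). Of its 15 genes 6 were tested, with IL37 and IL1RN called higher and IL1A, IL1B, IL36RN and 1 gene without a symbol not called. Beside the calls in both clusters, 13.0% of all tested genes were called higher and 15.7% lower. Both clusters hold members that were chosen from these same counts, so nothing is read from these shares.

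**Figure D3:**
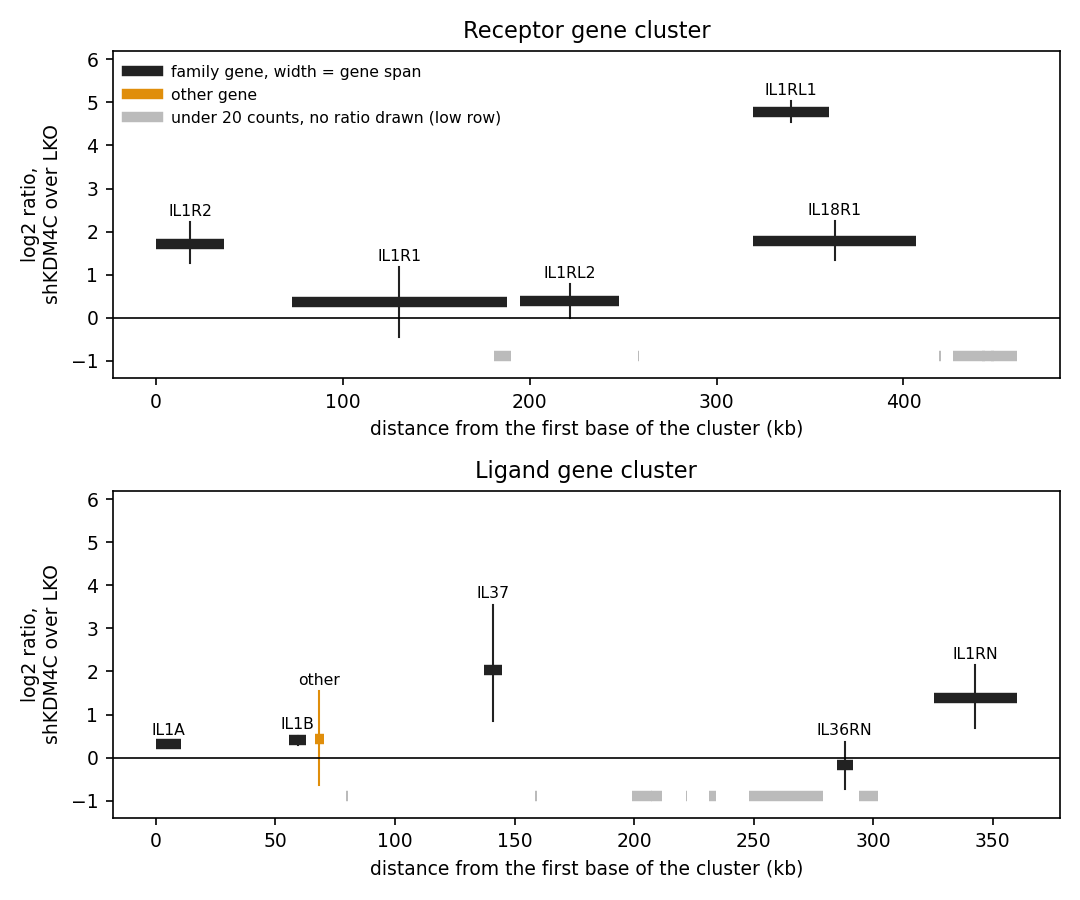
Log2 ratio of shKDM4C over LKO against the distance in kb from the first base of each cluster, with horizontal bars for gene spans, vertical lines for 95% counting intervals orange for the 1 gene outside the family, and grey bars in a low row for genes under 20 counts. In the receptor cluster IL1R2, IL1RL1 and IL18R1 lie at 1.72, 4.79 and 1.78, with IL1R1 and IL1RL2 between them at 0.37 and 0.39.

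Outside the clusters, within 500 kb on either side, 1 of 5 tested genes was called higher and 1 lower around the receptor cluster, a window chosen after the cluster's values were seen. The higher gene was LINC01127 (chr2:101962052-101987167), just before IL1R2, with 43 counts in shKDM4C and 17 in LKO (log2 ratio 1.58). The lower gene was SLC9A2, with 28 counts in shKDM4C and 74 in LKO (log2 ratio -1.12). Both were named after their values were seen. Around the ligand cluster 3 of 23 were called higher and 3 lower. Beside these counts and those below, 13.0% of all tested genes were called higher and 15.7% lower. IL1RAP lies on chromosome 3 (plus strand, chr3:190514051-190659750), where 0 of 3 tested neighbors within 500 kb were called higher and 1 lower. IL18 lies on chromosome 11 (minus strand, chr11:112143253-112164096), with 3 of 14 higher and 1 lower. IL33 lies on chromosome 9 (plus strand, chr9:6215786-6257983), 463 kb before KDM4C itself. Of the 9 tested genes around IL33, 2 were lower, KDM4C among them, and 0 were higher.

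The signaling chain below the receptors had shares of calls that were not far from those of all tested genes (13.0% higher and 15.7% lower). Of 17 tested genes of MyD88 and IRAK signaling, 1 was called higher and 3 lower, and the median log2 ratio was -0.23. TAB1, a partner of the kinase TAK1, had -1.15 (interval -1.28 to -1.02), the ubiquitin ligase gene PELI3 -0.97 (interval -1.23 to -0.71) and TAB3, another TAK1 partner, -0.81 (interval -0.87 to -0.75). The 1 higher gene was PELI2 at 0.68, named after its value was seen because it had fewer than 100 counts per library. Of 18 tested genes for processing and release, 2 were called higher and 2 lower, and the median was -0.0029. NLRP3, the inflammasome sensor, had 184 counts in shKDM4C and 59 in LKO, with a log2 ratio of 1.90 (interval 1.47 to 2.35), and CASP4, which senses lipopolysaccharide, had 0.68 (interval 0.61 to 0.76). DPP9, which holds NLRP1 inactive, had -0.97 (interval -1.05 to -0.89), and the pore-forming gasdermin gene GSDME -0.84 (interval -0.95 to -0.73). CASP1, which cuts the products of IL1B and IL18, had 151 counts in shKDM4C and 249 in LKO and was not called, and its adaptor PYCARD had 7 counts in shKDM4C and 5 in LKO. Both were named after their values were seen.

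Genes known to respond to interleukin-1 were mostly called higher. Of 25 tested, 16 were called higher, 2 lower and 7 neither, beside 13.0% higher and 15.7% lower over all tested genes. The median log2 ratio was 0.86. Named after their values were seen, the genes not called were IL6 (log2 ratio 0.39), NFKBIZ (0.38), LIF (0.34), NFKBIA (0.093), C3 (0.072), NFKB2 (0.053) and NFKB1 (0.038). The neutrophil chemokine gene CXCL8 had 787 counts in shKDM4C and 101 in LKO, with a log2 ratio of 3.22 (interval 2.93 to 3.54). TNFAIP3, which restrains NF-kB, had 3628 counts in shKDM4C and 724 in LKO (log2 ratio 2.59, interval 2.47 to 2.71), and the metalloproteinase gene MMP3 37818 counts in shKDM4C and 7871 in LKO (log2 ratio 2.53, interval 2.49 to 2.56). The 2 called lower, named after their values were seen, were SAA1 at -1.06 and SAA2 at -2.14, close paralogs of the acute-phase response. Reads of close paralogs may be split uncertainly, which was not examined for any gene of the list. Many of these genes respond to other signals too, and no ligand was added or blocked in these cells. The list was written with earlier results of these libraries known, so its direction is not independent evidence.

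**Figure D4:**
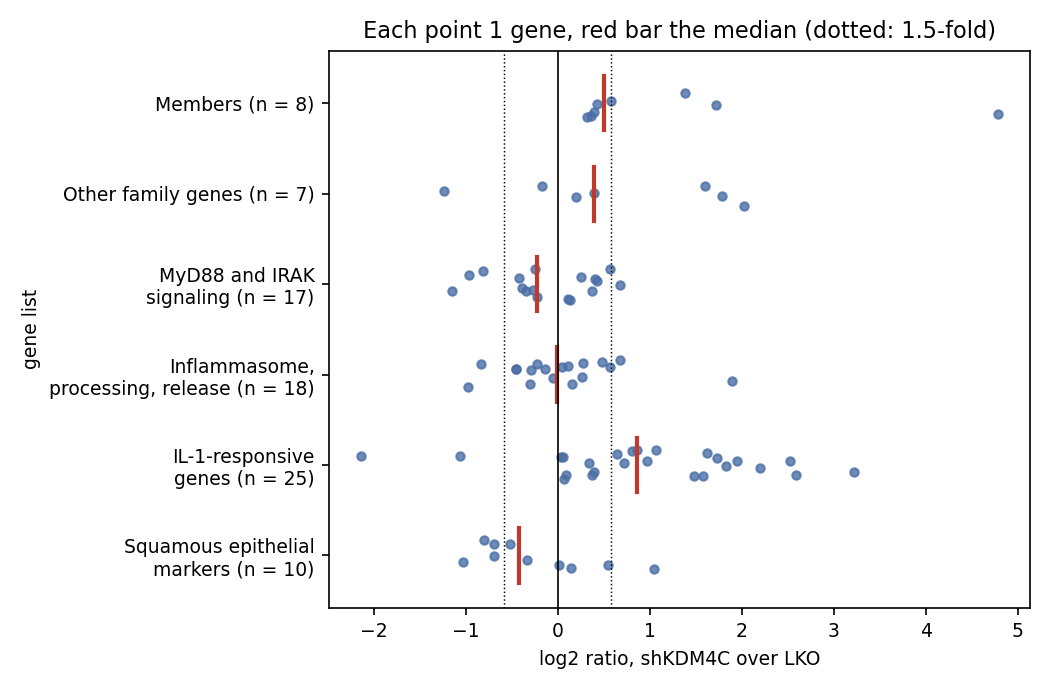
Log2 ratio of shKDM4C over LKO for every gene with at least 20 counts in 6 lists, 1 point per gene, with a red bar at the median of each list and dotted lines at 1.5-fold. The medians lie at 0.50 for the 8 tested members, -0.23 for MyD88 and IRAK signaling, -0.0029 for processing and release, 0.86 for the responsive genes and -0.42 for squamous markers.

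Markers of other cell types were mostly low, with IL7R and RORA as the exceptions. The 10 leukocyte markers summed to 3.75 CPM in shKDM4C and 3.09 CPM in LKO, with CD3E and NKG7 at 0 counts in both and PTPRC at 12 in shKDM4C and 14 in LKO. Of the 3 tested, 1 was called higher, CD14 with 16 counts in shKDM4C and 4 in LKO. CSF1R, not called, had 121 counts in shKDM4C and 149 in LKO. Under 20 counts, in shKDM4C and LKO in that order, were CD68 (9 and 1), FCER1G (11 and 4), CD79A (8 and 2) and ITGAM (8 and 9). Of the mast cell and type 2 lymphoid markers, where IL1RL1 is best known, CPA3, KIT and TPSB2 had 0 counts in both libraries. That list still summed to 587 CPM in shKDM4C and 362 CPM in LKO through IL7R, at 478 CPM in shKDM4C and 259 CPM in LKO, and RORA. Of the 3 tested genes of that list, 1 was called higher, IL7R, and 0 lower. The 8 fibroblast markers summed to 6.17 CPM in shKDM4C and 4.85 CPM in LKO, and of the 3 tested 1 was called higher, COL1A1, and 0 lower. The 8 endothelial markers summed to 4.63 CPM in shKDM4C and 1.77 CPM in LKO, and 3 of the 4 tested (CDH5, PECAM1 and VWF) were called higher from at most 67 counts. Beside these calls, 13.0% of all tested genes were called higher and 15.7% lower. DSG3, the leukocyte genes, the endothelial genes and the genes at 0 were named after their values were seen. The part of these markers in the family results was not tested.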

How the data were processed

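RNA from 1 LKO and 1 shKDM4C culture of SAS cells was sequenced as paired-end reads, from strand-specific poly(A) libraries. After base calling with CASAVA and quality checks with FastQC and MultiQC, the authors trimmed the reads with Trimmomatic, aligned them to GRCh38 with HISAT2 and counted them per gene with featureCounts, and deposited raw whole-number counts. For the versions, gene annotation and strand setting: not given in the sources used here. The deposited tables of the authors' own comparison (CPM values, log2 fold changes and p-values) were not used.

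Symbols came from GENCODE v44 (GRCh38) for 58472 of 58884 gene IDs. SOD2 matched no ID by symbol. Effective library sizes were computed with TMM in edgeR 4.0.16 (R 4.3.3), with factors of 0.974 for shKDM4C and 1.03 for LKO. Log2 ratios used a prior count of 0.5, and intervals are exact conditional binomial (Clopper-Pearson) at 95%. PCR copies are not independent molecules, so all intervals and the floor of 3 counts cover counting error only. No p-value was computed. The calls were run on simulated counts drawn from the mean levels of these libraries with counting error only. That run checks the code and cannot show how the calls would hold between replicate cultures. The 10 members, the lists and the calls were chosen with earlier results of these data known. Named are the members, KDM4C, all family genes with at least 20 counts, called genes within a cluster, and up to 3 genes in each direction per list, ranked by the interval bound nearest to 0 among called genes averaging 100 counts or more. Alternatives were total counts, size factors of DESeq2 1.42.0, minimums of 1 and 200 counts, a prior count of 5, a 99% interval and a 2-fold limit. Other software was scipy 1.17.1, pandas 2.3.3 and numpy 2.4.6 under Python 3.11.15.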

Additional observations from a re-analysis of the deposited data

How the results depend on the processing

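No family member was called lower and IL1RL1 was called higher under every alternative run. The number called higher was 3 with total counts, with a prior count of 5, with a 99% interval and with a 2-fold limit. It was 4 with DESeq2 size factors, where IL18 passed at a log2 ratio of 0.59, and 4 with genes of at least 1 count, where IL36G entered. It was 2 with genes of at least 200 counts, where IL1R2 and IL1RN fell out and IL18 passed at 0.60. The members' median log2 ratio lay between 0.43 (total counts) and 0.52 (DESeq2 size factors), except with genes of at least 1 count, where it was 0.95 because IL36G and IL33, at 0 counts in LKO, entered with fitted values. With IL36G at its floor and IL33 left out, it was 0.55. No sign changed among the members and other genes recomputed, and COL1A1, a fibroblast marker, lost its call at log2 0.53 with total counts and at 0.57 with genes of at least 1 count. Over all genes, 1053 were called higher and 1664 lower with genes of at least 200 counts, and 1404 higher and 1348 lower with a 2-fold limit, against 2358 and 2840. The all-gene median was -0.087 with total counts and 0.059 with genes of at least 1 count. No paired analysis was possible because each condition has 1 library. Among the members, IL33, IL36G, IL1R1 and IL1RN had the fewest counts, at most 55 in a library.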

Other observations

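The AU-rich word TATTTAT, which marks many short-lived cytokine mRNAs, was counted in the 3′ UTR of each gene's canonical Ensembl transcript. Of 13225 tested genes with such a UTR, 36.0% hold it at least once. Among the 8 tested members, IL1B holds 4, IL1A 3 and IL1RAP 2, all genes that were not called, while IL1RL1, IL1R2 and IL1RN, which were called higher, hold 0, as do IL18 and IL1R1. The UTRs differ in length, with 116 bases in IL1RL1, 152 in IL1R2 and 1143 in IL1RN, against 1142 in IL1A, 610 in IL1B and 2809 in IL1RAP. Among the other tested family genes, IL18R1, called higher, holds 1 word in 1890 bases and IL36RN, not called, 1 in 2067. IL37 and IL1RAPL1, called higher, SIGIRR, called lower, and IL18BP and IL1RL2, not called, hold 0. The 3′ UTRs of other transcripts were not scanned, for IL1RL1 or any other gene, and RNA stability was not measured.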
